A study of Eriocheir sinensis with 6 samples.

Results

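In walking-leg muscle of molting Chinese mitten crabs (Eriocheir sinensis), 193 annotated genes had accessible chromatin near the annotated start and no RNA-seq fragment. The first held in every ATAC-seq library and the second in every RNA-seq library. They were selected on these measured values, from 5129 annotated genes at 0 FPKM in all 3 RNA-seq libraries, 21314 annotated genes and 28671 listed genes in all. A start was called open when a peak summit lay within 500 bp of it in each of the 3 ATAC-seq libraries. The start itself need not be covered by a peak, and the number was 92 where a peak had to cover it. The start was the lower coordinate of a gene on the plus strand and the higher coordinate of a gene on the minus strand. Since accessibility and FPKM chose these genes, their counts and levels are descriptions without tests.

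The study sampled healthy, untreated juvenile male crabs in the molt period, which it calls period E, while one label gives the stage as D. Each of 3 crabs gave 1 piece of muscle, which was divided between ATAC-seq (Mu_E1, Mu_E2 and Mu_E3) and RNA-seq (Mu_E_1_RNA, Mu_E_2_RNA and Mu_E_3_RNA). All 6 libraries belong to this 1 condition, so no comparison between conditions was made. FPKM is the number of sequenced RNA fragments scaled by exon length and by library depth.

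In ATAC-seq a transposase cuts DNA that is not covered by nucleosomes, and the summit of a peak marks the place with most cut fragments. Starts of active genes are usually free of nucleosomes, but a start can also be accessible before its gene is transcribed, in a small share of the cells, or because a regulatory element lies there for another gene. An accessible start is therefore no measure of transcription. A piece of leg muscle holds several cell types, and transcription in few cells and little RNA per cell cannot be told apart in such bulk samples. The tables give no gene names, and 0 annotated identifiers matched the RefSeq gene table, so neither gene functions nor muscle markers could be checked and no sequence is shown.

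The RNA-seq libraries held 7088747, 7524721 and 7788537 fragments on the listed genes, as recovered from FPKM and gene length, and 100% of values came out as whole fragments within 0.05 of a fragment. The FPKM of libraries 1 to 3 had been divided by 4063622, 3868355 and 11153144 fragments, so 1 fragment is worth less FPKM in library 3. These divisors do not follow the fragments on the listed genes, and their origin is not given in the sources used here. A cut at 1 FPKM therefore stands for different numbers of fragments in the 3 libraries. The ATAC-seq lists held 68956, 56607 and 68351 summits.

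Open starts were less common among silent genes than among transcribed ones. Of the 5129 silent annotated genes, 193 or 3.76% (exact 95% binomial interval 3.26 to 4.32) had an open start, which is also the share of calls in that class, against 19.6% of all annotated genes. Among the 8693 annotated genes at 1 FPKM or more in every library, 2941 or 33.8% had one, and among the genes between these classes 13.9%. Such intervals cover counting error only and take genes as independent, so whether they overlap is no test.

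Each library on its own called more silent starts than the 3 together. Mu_E1 had a summit near 350 silent starts, Mu_E2 near 266 and Mu_E3 near 299, which makes 5.95% ± 0.825 (SD, n = 3) of the silent genes. In 92 of them the summit was present in 2 libraries and in 152 in 1 library, so the requirement for all 3 libraries removed more genes than it kept. Mu_E2, the library with the fewest summits, called the fewest.

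The start itself stood out only moderately from the chromatin around it. The same window placed 2 kb upstream of the silent starts held summits in all 3 libraries at 1.89% (interval 1.53 to 2.30) of them, and windows at 5, 10 and 20 kb at 2.07%, 1.71% and 1.72%. These upstream points were chosen after earlier results were known. As a description, the share at the start was higher than at every upstream point examined, and its interval overlapped none of theirs. For the genes at 1 FPKM or more, the share went from 7.24% at 2 kb upstream to 33.8% at the start. Summits per 1000 starts within 500 bp were 1.77 ± 0.0496 (SD, n = 3) times those per 1000 windows of the same width 2 to 3 kb away for silent genes, and 6.65 ± 0.210 times for expressed genes.

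**Figure D1:**
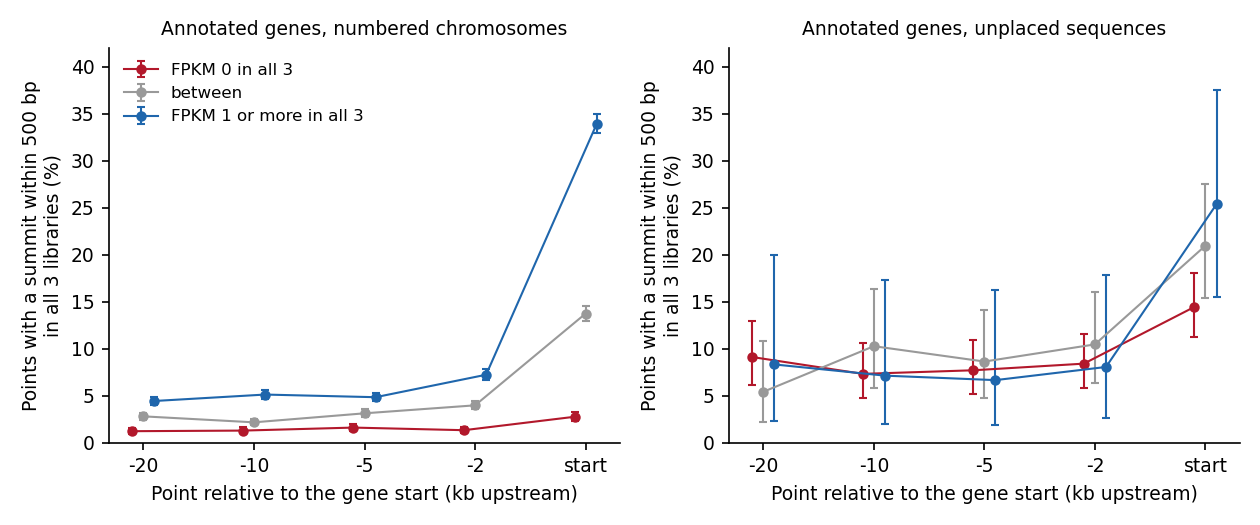
Share of annotated genes (percent, y axis) with a summit within 500 bp in all 3 ATAC-seq libraries, at the start and at points 2 to 20 kb upstream (x axis), by FPKM class and by kind of sequence. Points are shares and bars exact 95% binomial intervals. On numbered chromosomes the silent genes rise to 2.77% at the start and the expressed genes to 33.9%, while on unplaced sequences the intervals of the classes overlap.

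The silent genes with open starts were concentrated on sequences that the assembly does not place on a chromosome. Unplaced sequences carried 63 of the 193, or 32.6% (interval 26.1 to 39.7), beside 3.23% of all annotated genes, 6.65% of the 4692 silent genes with no summit near the start in any library, and 0.578% of the expressed genes with open starts. Read from the other side, 14.4% of the 436 silent genes on unplaced sequences had an open start (interval 11.3 to 18.1), against 2.77% of the 4693 on numbered chromosomes (interval 2.32 to 3.28). The intervals did not overlap. For expressed genes the shares were 25.4% on unplaced sequences (17 of 67, interval 15.5 to 37.5) and 33.9% on numbered chromosomes, and the intervals overlapped. Windows 2 kb upstream of silent starts were open at 8.42% on unplaced sequences and 1.34% on numbered chromosomes.

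The 63 genes were spread over 54 unplaced sequences, and 21 of them were the only gene listed on their sequence. Those sequences were short, with a median largest listed coordinate of 59.4 kb. The sequence JACDRO010003284.1 carried 3 of the genes and 7 others carried 2 each. Unplaced sequences also had more summits in general. Within 50 kb on each side, leaving out the start window, the median was 10.7 summits for the open silent genes on unplaced sequences and 8.17 for the closed ones there, against 4.83 and 1.67 on numbered chromosomes. The authors kept uniquely mapped fragments in RNA-seq and filtered ATAC-seq reads on mapping quality, and the part of sequence copies in these values was not tested.

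The remaining 130 genes lay on 56 of the 72 numbered chromosomes that carry genes, 22 of which had exactly 1. CM024137.1 stood apart with 15, and the next chromosome, CM024103.1, had 5.

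In shape these genes resembled other silent genes more than expressed ones. Their exon length had a median of 750 bp (quartiles 414 and 1279, range 160 to 6927), against 738 bp for silent genes with closed starts and 1933 bp for expressed genes with open starts. Their genomic span had a median of 2166 bp, against 3412 and 11594 bp. In 64 of them, or 33.2% (interval 26.6 to 40.3), exon length equalled span, so the model has no intron. That was the case in 15.0% of all annotated genes, 26.3% of the closed silent genes and 5.64% of the expressed genes with open starts. On numbered chromosomes the share was 30.8% (interval 23.0 to 39.5), which covers the 26.0% of the closed silent genes there. On unplaced sequences it was 38.1% (interval 26.1 to 51.2), beside 30.8% of the closed silent genes. The share of silent genes with an open start changed little with length, from 4.14% under 500 bp to 4.58% at 2000 bp or more, whereas it went from 19.7% to 48.2% in expressed genes.

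How low a zero can reach depends on length, because 3 fragments, the most that a count of 0 reasonably allows, weigh more in a short gene. That limit had a median of 0.984, 1.03 and 0.359 FPKM over the 193 genes in libraries 1 to 3. It was under 1 FPKM in every library for 92 genes and under 0.5 FPKM for 34. For the other 101 genes the limit was 1 FPKM or more in at least 1 library, up to 4.85 FPKM, so that library alone could have missed a level of 1 FPKM. In library 3 the limit was under 1 FPKM for 168 of the 193 genes. A level would have to be missed in all 3 libraries at once, and a limit for the 3 together was not computed.

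The 3 longest genes have the lowest such limits. Whether fragments were lost there to an overlap or to sequence copies was not tested. JACDRO010001204.1.6 (evm.TU.JACDRO010001204.1.6, minus strand, 58153 to 93700) has 6927 bp of exons, and 3 fragments would give it 0.107, 0.112 and 0.0388 FPKM. Its strongest summit near the start reached a fold enrichment of 9.13 in Mu_E1, 6.20 in Mu_E2 and 7.99 in Mu_E3, with the nearest summit 32, 19 and 20 bp from the start. The fold enrichment is the ratio of fragments at the summit to the local background. The next, evm.TU.CM024104.1.34 (plus strand, CM024104.1 from 1216149 to 1225717, 6341 bp of exons), had 4.46, 4.61 and 4.49 with the nearest summit 14, 19 and 16 bp away. It overlaps the opposite-strand gene evm.TU.CM024104.1.35, which was at 3.49, 2.63 and 1.93 FPKM. The gene evm.TU.CM024156.1.128 (plus strand, CM024156.1 from 4041390 to 4046824, 5435 bp without an intron) had 3.51, 3.10 and 3.06, and its nearest summit lay 258 bp from the start in Mu_E1 but 54 and 48 bp in the other libraries.

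Peaks at silent starts were slightly weaker than those at expressed starts. The median fold enrichment of the strongest summit in the window was 4.75, 4.82 and 4.93 for the 193 genes in Mu_E1, Mu_E2 and Mu_E3, and 5.51, 5.73 and 6.11 for the 2941 expressed genes. On the log2 scale the mean difference was -0.20 ± 0.04 (SD, n = 3 libraries), and it was below 0 in 3 of 3. With the 130 genes on numbered chromosomes alone it was -0.11 ± 0.03. With summits at a q-value of 1e-05 or less it was -0.012 and smaller than its spread over the libraries (SD 0.04).

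**Figure D2:**
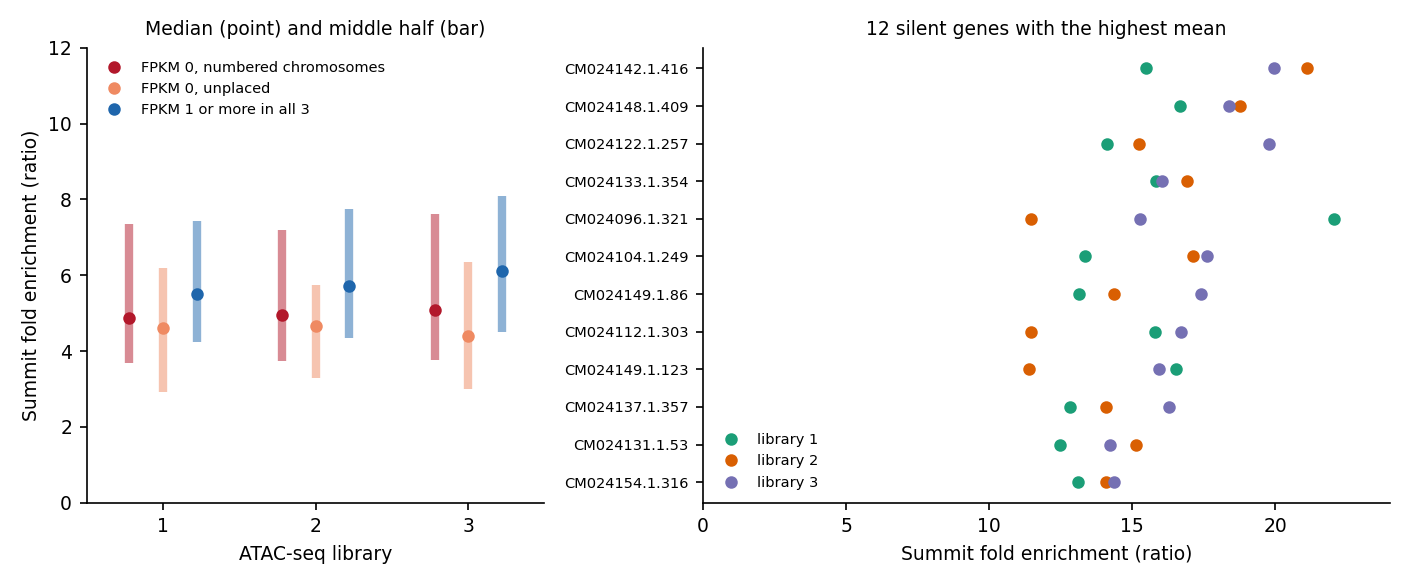
Fold enrichment of the strongest summit within 500 bp of the start (ratio). Left, median (point) and interquartile range (bar) in each library for silent genes with open starts on numbered chromosomes and unplaced sequences and for expressed genes with open starts, whose medians are highest in all 3 libraries. Right, each library's value for the 12 silent genes with the highest mean, all between 11.4 and 22.1.

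The order of the genes by peak strength was much the same in the 3 crabs. Over the 193 genes, Spearman's rho of fold enrichment was 0.823 between Mu_E1 and Mu_E2, 0.862 between Mu_E1 and Mu_E3 and 0.840 between Mu_E2 and Mu_E3. This is a description across genes, which share libraries and depth. Each gene's mean over libraries ran from 1.92 to 18.9, with a median of 4.79.

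The strongest peaks belonged to genes on 5 chromosomes. The highest mean was that of evm.TU.CM024142.1.416 (minus strand, CM024142.1 from 12050671 to 12054950), with 15.5, 21.1 and 19.9, followed by evm.TU.CM024148.1.409 (minus strand, CM024148.1 from 13520730 to 13576814), with 16.7, 18.8 and 18.4. The intronless gene evm.TU.CM024133.1.354 (minus strand, CM024133.1 from 11494161 to 11494376, 216 bp) had 15.8, 16.9 and 16.1. All 3 had values above 15 in every crab. In evm.TU.CM024122.1.257 (plus strand, CM024122.1 from 9253372 to 9267009) the values were 14.1, 15.2 and 19.8. The intronless gene evm.TU.CM024096.1.321 (plus strand, CM024096.1 from 11834905 to 11835804) varied most, with 22.1, 11.5 and 15.3.

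High enrichment did not mean a summit on the start. The nearest summit of CM024096.1.321 lay 468, 470 and 470 bp downstream of the start, and that of CM024148.1.409 lay 185, 186 and 181 bp upstream. In CM024142.1.416 the strongest summit, to which the fold enrichment belongs, lay 298, 279 and 270 bp upstream, and Mu_E1 had a further summit nearer to the start. Of the 5 genes, 3 had no other listed start within 5 kb and no overlap with another gene (CM024142.1.416, CM024148.1.409 and CM024096.1.321). The next such genes were evm.TU.CM024104.1.249, with 13.4, 17.1 and 17.6, and evm.TU.CM024149.1.86, with 13.1, 14.4 and 17.4. The strongest summit lay 312, 296 and 307 bp upstream of the start in the first and 334, 325 and 345 bp upstream in the second, so it kept its place within 20 bp in the 3 crabs.

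Over all 193 genes the summits were loosely placed around the start of the gene model. How precisely the models place the starts of silent and expressed genes was not tested. The nearest summit was within 100 bp of it in 37.3%, 31.1% and 35.2% of the genes in Mu_E1, Mu_E2 and Mu_E3, against 70.7%, 69.9% and 72.5% of the expressed genes with open starts. In all 3 libraries at once it was within 100 bp in 43 genes, or 22.3%, against 59.0% of the expressed ones. The strongest summit lay upstream in 49.6% ± 0.791 (SD, n = 3) of the silent and 56.0% ± 0.995 of the expressed genes. Between the 3 crabs the nearest summit moved by a median of 55 bp, and by more than 200 bp in 47 genes. In 13 of those 47 the strongest summit stayed within 50 bp, so only a further, nearer summit differed. The strongest summit moved by a median of 53 bp over the 193 genes and by more than 200 bp in 51. In the expressed genes the medians were 26 bp for the nearest and 27 bp for the strongest summit.

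**Figure D3:**
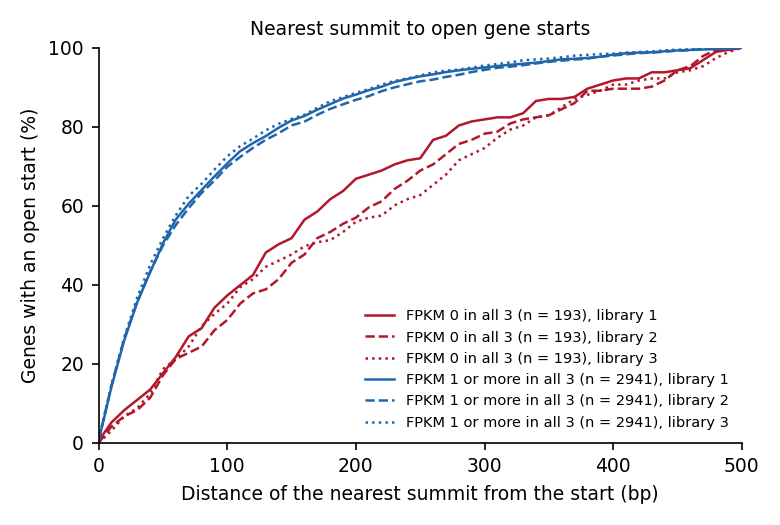
Cumulative share (percent, y axis) of genes with open starts whose nearest summit lies within a given distance of the start (bp, x axis), for 193 silent and 2941 expressed genes in each of the 3 libraries. At 100 bp the silent genes reach 31.1 to 37.3% and the expressed genes 69.9 to 72.5%.

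A summit within 100 bp in every library was still more common at silent starts than upstream of them. The 43 genes are 0.838% of all silent annotated genes (interval 0.607 to 1.13), while points 2, 5, 10 and 20 kb upstream gave 0.197%, 0.276%, 0.278% and 0.300%. Of the 43, 28 lay on numbered chromosomes, 13 had no intron and 4 had an expressed start within 1 kb. Their exon length had a median of 786 bp and their mean fold enrichment a median of 5.16. The fold enrichment is that of the strongest summit in the window, which was itself within 100 bp in all 3 libraries in 28 of the 43.

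Among these 43, 16 also had no other listed start within 5 kb, no overlap with another gene, and a limit under 1 FPKM in every library. This set was chosen after its values were seen. It holds 9 genes on numbered chromosomes. The most enriched of them was evm.TU.CM024149.1.123 (plus strand, CM024149.1 from 3461557 to 3469337, 1083 bp of exons), with 16.5, 11.4 and 15.9 and the nearest summit 2, 52 and 34 bp from the start. For evm.TU.CM024154.1.316 (plus strand, CM024154.1 from 9806432 to 9842592, 2314 bp of exons) the fold enrichment was 13.1, 14.1 and 14.4, at 3, 7 and 9 bp. The third, evm.TU.CM024157.1.136 (minus strand, CM024157.1 from 4315100 to 4317265, 1032 bp of exons), had 11.3, 13.8 and 14.5 at its strongest summit, 383, 399 and 395 bp downstream, and a further summit 37, 49 and 35 bp from the start. The strong summit was thus at the start in the first 2 genes and away from it in the third. In these 3 genes 3 fragments would have given at most 0.716, 0.335 and 0.751 FPKM.

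A neighbouring gene that starts close by can share an accessible start. Another listed start, annotated or added to the annotation by the authors, lay within 1 kb of 26 of the 193, or 13.5% (interval 8.99 to 19.1), beside 9.29% of all annotated genes. An expressed one, with a mean of 1 FPKM or more, lay within 1 kb of 9, or 4.66% (interval 2.15 to 8.67), beside 5.03% of all annotated genes. The shares were 0.554% of the closed silent genes and 9.76% of the expressed genes with open starts. All 9 lay on numbered chromosomes, where they were 6.92% of the 130 genes (interval 3.21 to 12.7). The shares there were 5.16% of all annotated genes, 0.571% of the closed silent genes and 9.82% of the expressed genes with open starts. The closed genes have no summit within 500 bp in any library. Silent genes close to a neighbour's open start are therefore partly left out of that set by its definition, so its low share is no independent contrast. Of the 27 other starts, 24 were annotated and 3 added, and 12 were themselves at 0 in all libraries. In 11 of the 26 genes the highest neighbour was at 0 and in 6 it was above 0 and under 1 FPKM.

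Of the 9 genes with an expressed neighbour, 5 were head to head with it, that is, on opposite strands and transcribed away from each other. The strongest summit was nearer to the neighbour's start in all 3 libraries for 3 of the 9 and nearer to the silent start for 4. No single arrangement held for all.

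The closest strong neighbour was that of evm.TU.CM024131.1.472 (minus strand, CM024131.1 from 15171163 to 15174565). The gene evm.TU.CM024131.1.473 starts 35 bp away, head to head, and was at 1875, 2535 and 1068 FPKM. The strongest summit lay 13, 3 and 8 bp from that start and 48, 38 and 43 bp from the silent one, and the fold enrichment was 7.11, 5.11 and 8.73. Both starts lie at the same summit, and fragments were counted for only one of the genes.

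For evm.TU.CM024160.1.412 (plus strand, CM024160.1 from 15895817 to 15895976, 160 bp, the shortest of the 193) the neighbour evm.TU.CM024160.1.413 starts 582 bp downstream on the same strand. It was at 300 FPKM in library 1 and at 3.60 and 13.2 in libraries 2 and 3, a spread that rests on 1 crab. The strongest summit lay 49, 51 and 87 bp from the silent start and 533, 531 and 495 bp from the neighbour's. The silent gene ends before its neighbour starts, and its 3-fragment limit was 4.61, 4.85 and 1.68 FPKM.

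The other 3 of the 5 genes with the highest neighbours had neighbours at a mean of 2.12 to 3.48 FPKM. The pair evm.TU.CM024103.1.313 and evm.TU.CM024103.1.314 was head to head with 745 bp between the starts, and the summit lay between them, 377, 367 and 361 bp from the silent start and 368, 378 and 384 bp from the other. The pair evm.TU.CM024156.1.326 and evm.TU.CM024156.1.325 was head to head at 170 bp, with the summit 124, 90 and 117 bp from the silent start and 46, 80 and 53 bp from the other, which was at 1.84, 1.13 and 3.38 FPKM. In evm.TU.CM024119.1.14 and evm.TU.CM024119.1.15 the starts lie 523 bp apart on overlapping genes of opposite strands, and the summit was nearer to the silent start in all 3 libraries (73, 92 and 110 bp). Its fold enrichment was 2.36, 2.57 and 2.23.

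**Figure D4:**
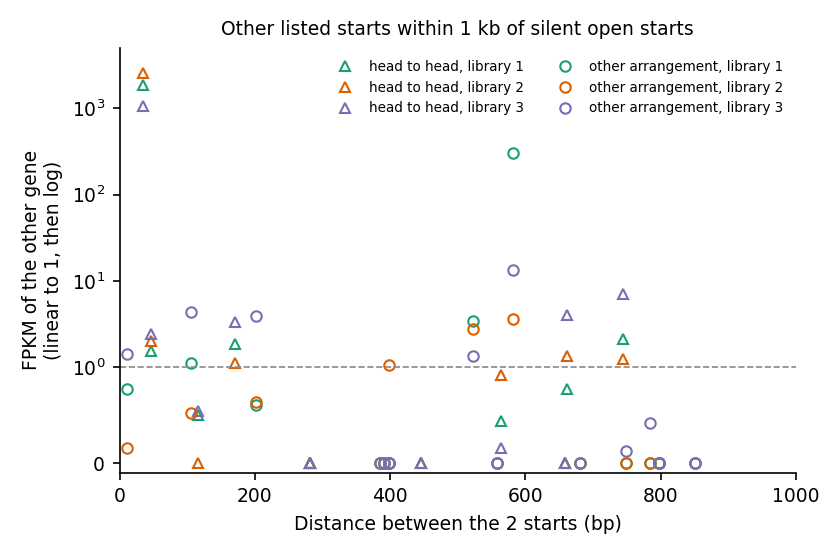
FPKM of the other gene (y axis, linear to 1 and logarithmic above) against the distance between the starts (bp, x axis) for the 27 other listed starts within 1 kb of a silent open start, with 1 symbol per RNA-seq library. Triangles are head-to-head pairs and the dashed line marks 1 FPKM. A single neighbour lies above 1000 FPKM in all 3 libraries, 12 are at 0 in all, and 9 of the 193 genes have a neighbour at a mean of 1 FPKM or more.

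The share that overlapped another gene was near that of all annotated genes. Overlap was seen in 10 of the 193 genes, or 5.18% (interval 2.51 to 9.32), beside 6.09% of all annotated genes. The overlap was on the opposite strand in 9 and on the same strand in 1, and in 8 the other gene was at a mean of 1 FPKM or more. The strand setting of the fragment counting is not given in the sources used here, and fragments shared by overlapping genes may have been left uncounted, which was not tested. The most transcribed overlapping gene was evm.TU.CM024148.1.24, at 95.6, 153 and 21.0 FPKM, on the strand opposite to evm.TU.CM024148.1.25. The overlap on the same strand was that of evm.TU.CM024140.1.335 with evm.TU.CM024140.1.342, at 12.3, 7.62 and 8.04 FPKM.

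Both kinds of neighbour together reached 14 of the 193 genes, or 7.25%, which had an expressed start within 1 kb or an expressed overlapping gene. An expressed overlapping gene alone was seen in 4.15%, beside 3.46% of all annotated genes. Neither any other start within 1 kb nor an overlap was found for 161 genes. No other start within 5 kb and no overlap held for 142, or 73.6% (interval 66.8 to 79.6). That was near the 71.1% of the closed silent genes, beside 60.9% of all annotated genes. Those 142 had median fold enrichments of 4.71, 4.74 and 4.80, close to the 4.75, 4.82 and 4.93 of the whole set. Within 100 kb of the start, 129 genes, or 66.8%, had no annotated gene at 1 FPKM or more in every library, against 59.2% of the closed silent genes and 10.7% of the expressed genes with open starts. On numbered chromosomes alone the order was the opposite, with 53.8% against 56.6% of the closed silent genes, since 59 of the 63 genes on the short unplaced sequences had none.

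Accessible chromatin at the other end of the gene was found in a minority, at a higher share than in the other sets. Among the 132 genes with a span over 1000 bp, so that the windows at start and end cannot overlap, 18 or 13.6% (interval 8.29 to 20.7) had a summit within 500 bp of the end in all 3 libraries. The share was 2.08% of the closed silent genes, 2.85% of the expressed genes with open starts and 2.94% of all annotated genes of that span. In 25 genes the whole gene fits within 500 bp. Over all spans, where the windows can overlap, the share differed by kind of sequence. It was 23.1% on numbered chromosomes, beside 3.20% of all annotated genes there, and 42.9% on unplaced sequences, beside 18.3%. The shares for spans over 1000 bp were not split in this way, and the sets differ in their part on unplaced sequences.

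A long stretch of CM024137.1 without expressed genes held 12 open silent starts. Numbered chromosomes hold 11 stretches of 3 Mb or more without an annotated gene at 1 FPKM or more in every library, a division made after the values were seen. They held 28 of the 193 genes among 496 silent ones. The stretch of CM024137.1 from 18495879 to 31429185 (12.9 Mb) held 12 of its 62 silent genes, or 19.4% (interval 10.4 to 31.4), against 3 of 60 on the rest of that chromosome. The other 10 stretches together held 16 of 434, or 3.69%, and 2 of them held none.

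The CM024137.1 stretch was also dense in summits. It had 132, 96.8 and 109 summits per Mb in Mu_E1, Mu_E2 and Mu_E3, against 35.2, 28.1 and 36.2 on the rest of the chromosome. The highest mean FPKM of its 72 annotated genes was 0.217, and 0 of its 24 added genes was at 1 FPKM or more in every library. At 2, 5, 10 and 20 kb upstream of the 62 silent starts, 1, 4, 1 and 3 windows held summits in all libraries, against 12 at the starts themselves.

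A second stretch was nearly as dense in summits. The stretch of CM024130.1 (4241348 to 10588570) had 105 ± 21.3 summits per Mb (SD, n = 3) and 3 open starts among 40 silent genes, or 7.50% (interval 1.57 to 20.4), which overlaps the interval of the CM024137.1 stretch. The longest stretch, on CM024099.1 (11537916 to 24973578), had 20.8 ± 5.48 summits per Mb and 1 open start among 113 silent genes.

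Peaks in the CM024137.1 stretch were mostly weak. The mean fold enrichment of its 12 genes ran from 2.30 to 9.66 with a median of 3.72, 5 of the 12 had no intron, 11 had no other start within 5 kb and no overlap, and only 1 had a summit within 100 bp in all 3 libraries. The strongest was evm.TU.CM024137.1.573 (minus strand, 24876092 to 24876658, intronless), with 10.8, 12.1 and 6.11, and the nearest summits 198, 214 and 224 bp downstream. The next was evm.TU.CM024137.1.617 (plus strand, 26579815 to 26580884), with 9.01, 8.75 and 7.82. The one gene with close summits was evm.TU.CM024137.1.503 (minus strand, 20692444 to 20693305), at 14, 42 and 42 bp. The fold enrichment of its strongest summit, which lay 301 bp away in Mu_E1, was 2.15, 2.60 and 2.16, with the lowest mean of the 12. Genes of this stretch named here were chosen after their values were seen.

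**Figure D5:**
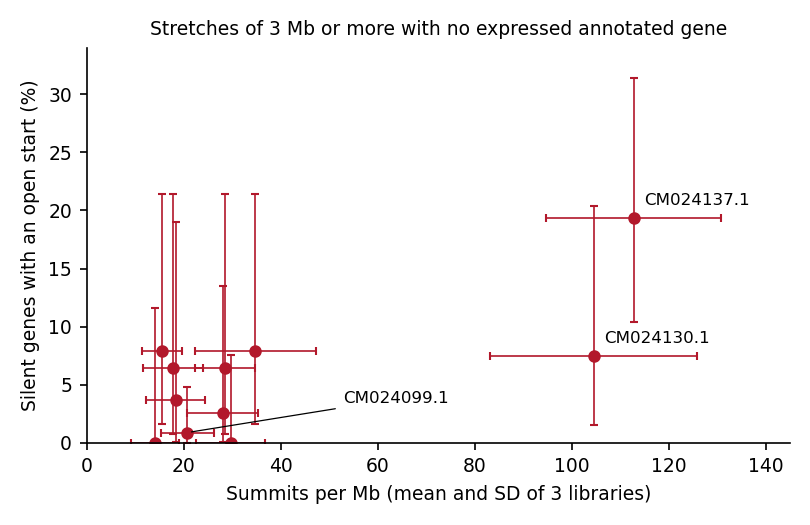
Share of silent annotated genes with an open start (percent, y axis, exact 95% binomial intervals) against summits per Mb (x axis, mean and SD of 3 libraries) in the 11 stretches of numbered chromosomes without an expressed annotated gene for 3 Mb or more. CM024137.1 (19.4%) and CM024130.1 (7.50%) have over 100 summits per Mb, and the other 9 stretches have 14.1 to 34.8.

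At the 500 bp limit the values were as follows. Just inside lay evm.TU.JACDRO010003270.1.27, whose nearest summit in Mu_E1 to Mu_E3 was 70, 499 and 492 bp from the start, evm.TU.CM024162.1.353 (at most 496 bp) and evm.TU.CM024104.1.127 (494 bp). Just outside lay evm.TU.CM024132.1.331 (327, 501 and 486 bp), evm.TU.JACDRO010001522.1.2 (503 bp) and evm.TU.CM024158.1.358 (505 bp). In each of the last 3 genes a single library decided, since the other libraries had a summit within 500 bp.

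The study's list of genes with differences in both assays holds 904 of the 21314 annotated genes. It holds 8 of the 5129 that were silent in period E, and 1 of the 193 silent genes with an open start. That gene, evm.TU.CM024149.1.345 (minus strand, CM024149.1 from 9935607 to 9946582), had a fold enrichment of 8.27, 8.06 and 7.51, with the strongest summit 255, 473 and 463 bp upstream of the start. The list was chosen partly on these libraries, so it is no independent evidence.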

How the data were processed

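ATAC-seq and RNA-seq were each performed on 3 crabs, 1 library per crab. The authors ran skewer and then BWA on the ATAC-seq reads, against the E. sinensis genome named in the labels, dropped mitochondrial and improperly paired reads, and used MACS2 on every library separately. The deposited lists give a summit position, a score (not used), a fold enrichment ratio, and the −log10 of the p-value and q-value, all by the authors. Whether reads were shifted for the transposase is not given in the sources used here. For RNA-seq, the authors aligned reads with HISAT2 2.0.5, counted uniquely mapped fragments with featureCounts 1.5.0-p3 and deposited FPKM. The annotation version is not given in the sources used here.

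Summits, starts, spans and neighbours were joined in Python 3.11.15 (pandas 2.3.3, numpy 2.4.6), intervals came from scipy 1.17.1, and figures from matplotlib 3.10.9. A gene was called expressed at 1 FPKM or more in all 3 libraries, and a neighbour at a mean of 1 FPKM or more. Intervals are exact Clopper-Pearson 95% intervals. No test was run, since 3 libraries of 1 condition allow no p below 0.25 in an exact two-sided sign test. The joins were tested on simulated data. The genes and lists were chosen with earlier results of these data known. Named genes were the 5 with the highest mean fold enrichment, the 5 highest without neighbours, the 5 with the highest neighbours, the 3 longest, the 3 on each side of the limit, and those in the study's integrated list. Others were chosen after their values were seen. Alternatives covered the window, peak threshold, peak overlap, fragment limit, kind of sequence, gene models, neighbour limits and leaving out each library.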

Additional observations from a re-analysis of the deposited data

How the results depend on the processing

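The number of silent genes with open starts depended mainly on the rule. It was 109 (2.13% of silent genes) with a 250 bp window, 122 (2.38%) with a q-value of 1e-05 or less, 92 (1.79%) where a peak had to cover the start, and 335 (4.48%) with up to 2 fragments allowed per RNA-seq library. The share was 5.46% with a 1000 bp window and 2.77% on numbered chromosomes. Leaving out 1 library gave 206 to 259 genes and 3.82 to 4.85%, with the highest share without Mu_E2. The share with an expressed neighbour was 1.04% when the neighbour had to reach 5 FPKM, 2.59% within 500 bp, 7.25% at 0.1 FPKM, 7.34% with a 250 bp window and 7.61% where a peak covered the start. The log2 difference in fold enrichment was -0.012 with the stricter q-value, -0.14 with up to 2 fragments, -0.11 on numbered chromosomes, -0.26 by medians and -0.25 to -0.18 without 1 library. The share on unplaced sequences was 23.6% with up to 2 fragments, and the share without an intron was 25.4% with the stricter q-value. The overlap share stayed between 4.10 and 8.70%. The log2 difference stayed below 0 in every alternative. By the main rule the shares with an expressed neighbour and with an overlap were below those of all annotated genes (5.03% and 6.09%). Where a peak covered the start these shares were above them, at 7.61% and 8.70%. Chosen after seeing the data, exon lengths of 500 bp or more gave 129 genes (3.60%), and leaving out the CM024137.1 stretch 181 (3.57%). The cause of these shifts was not tested. No paired analysis was possible because all libraries belong to 1 condition. Depth limits the zeros of short genes.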

Other observations

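Genes that the authors added to the annotation were outside the rule. Of the 2936 added genes at 0 FPKM in all 3 libraries, 154 or 5.25% (interval 4.47 to 6.11) had an open start, and of the 966 at 1 FPKM or more in all 3, 142 or 14.7%.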
